A study of Mus musculus with 4 samples.

Results

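Cdh1, Cdh3, Epcam, Cldn4, Cldn6, Cldn7, Ocln, Krt8, Krt18 and Esrp1 are 10 genes that epithelial cells use to hold on to their neighbours, to seal the space between them, to build their keratin network and to splice their transcripts. They were taken by symbol, and all 10 were found among the 24026 genes of the expression table. Their RNA was measured in F123-ESCs, a male mouse embryonic stem cell line from a cross of S129/Jae and Cast mice, in which each autosome has a maternal S129 copy and a paternal CAST copy. The cells were untreated, grown with LIF on a layer of inactivated embryonic fibroblasts, then passaged at least 2 times without feeder cells and harvested after about 48 h. PolyA RNA was sequenced in 4 libraries, replicates 1 to 4, with a stranded kit and paired reads of 150 bp. All 4 libraries have the same condition, so the comparisons are between the alleles of a gene, between genes and between libraries. The 4 libraries are from 1 cell line and nothing says that they came from separate cultures, so p-values measure only the spread between these libraries, which may be technical.

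Cadherins join cells at adherens junctions by binding the same cadherin on the next cell, and hand the force to actin through the catenins. Claudins and occludin form the strands of tight junctions, and keratins 8 and 18 pair with each other into the filaments of simple epithelia. Mouse embryonic stem cells carry E-cadherin and grow as compact colonies, and repressors of the Snail and Zeb families, which bind E-boxes in the promoters of epithelial genes, switch such genes off when cells turn mesenchymal.

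Values are RPKM, reads per kilobase of transcript scaled to the depth of sequencing, for each allele. Each allele column was scaled to its own total of reads, so RPKM and read shares can differ in direction where the alleles are close. Only reads that cover a SNP between the strains could be given to an allele, so a gene's level also depends on how many of its reads hold a SNP, and the order of levels between genes is that of the deposited values. The reads recovered from the RPKM came to between 34120417 and 56627973 per library for both alleles together, lowest in replicate 4, with 50.8% to 51.0% of them on S129. A single read on a kilobase of transcript stood for 0.0348 to 0.0598 RPKM. The 8 markers of embryonic stem cells summed to between 7972 and 9557 RPKM per library as the mean of both alleles, with Dppa5a, a gene with close copies elsewhere in the genome, the highest at 7111 RPKM. The 8 markers of feeder fibroblasts summed to 490 to 583 RPKM, led by Acta2 at 339.5 RPKM and Col1a2 at 166 RPKM. Postn had 15.4, Col3a1 11.4, Col1a1 5.68 and Thy1 1.57 RPKM, and Lum and Dcn were under 1 RPKM. Divided by the length of all annotated exons in place of the deposited length, the fibroblast sum was 277 to 321 RPKM. Acta2 then had 275, Col1a2 11.3, Postn 5.52, Col1a1 5.14, Col3a1 3.68 and Thy1 0.911 RPKM. As deposited, the fibroblast sum was 499 to 590 RPKM on S129 and 480 to 575 RPKM on CAST. The part of these markers in the values below was not tested. In bulk RNA, fewer cells of a type and less RNA per cell cannot be told apart.

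All 10 genes were expressed in every library and on both alleles, from Krt8 at 205 ± 18.9 RPKM (SD, n = 4 libraries, mean of both alleles) down to Ocln at 3.23 ± 0.369 RPKM. Krt8 ranked 485th from the top among the 24026 genes and Ocln 9165th. Of the 10 genes, 7 had more RNA from the CAST allele, only Cldn6 had more from S129, and Cldn7 and Krt18 did not pass the test. This is from limma on log2(RPKM+0.1), S129 minus CAST within each library, with Benjamini-Hochberg adjustment over all 13341 genes tested and a threshold of 0.05. Over all genes tested, 31.3% were called with CAST higher and 31.4% with S129 higher, 62.7% in either direction, so a call by itself was common. The median difference of the 10 genes was -0.29, and that of all genes tested was -0.0034 on the log2 scale. The median of the 10 was -0.19 with the columns rescaled to one autosomal sum, where that of all genes tested was 0.10, and -0.20 after the median of each gene's chromosome was subtracted.

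**Figure D1:**
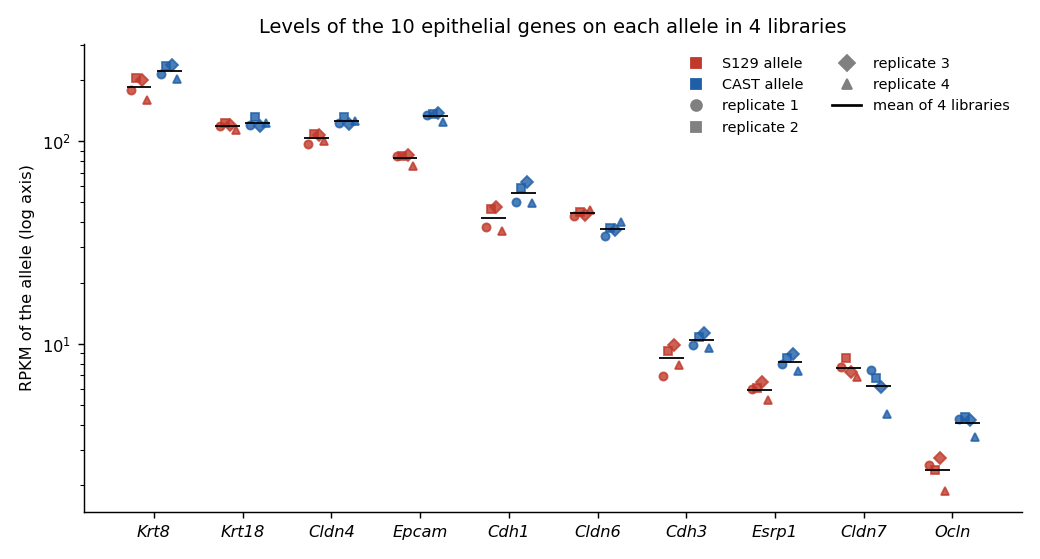
RPKM of each of the 10 genes (log axis) on the S129 allele (red) and the CAST allele (blue) in each library, with the marker shape giving the replicate and the bar the mean of 4 libraries. Krt8 is highest and Ocln lowest, and all 4 CAST points lie above all 4 S129 points for Cdh1, Epcam, Cldn4, Esrp1 and Ocln.

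The 2 cadherin genes lie side by side on chromosome 8. Cdh1 (ENSMUSG00000000303; chr8:106603351-106670246, plus strand, mm10) encodes E-cadherin, the main adhesion molecule of epithelia and of embryonic stem cells. Its S129 allele had 37.6, 46.1, 47.5 and 35.9 RPKM in replicates 1 to 4, and its CAST allele had 50.1, 58.9, 62.8 and 49.5 RPKM. The lowest CAST value was above the highest S129 value, so the alleles did not overlap, although replicates 1 and 4 were low and replicates 2 and 3 high on both. Cdh1 was higher from CAST by 1.33-fold (log2 difference -0.41, SE 0.034, limma, Benjamini-Hochberg adjusted p = 0.000739, CAST higher in 4 of 4 libraries). The values rest on 2770 to 6573 reads per allele and library, and S129 took 43.9% ± 0.78 (SD, n = 4) of the reads of Cdh1.

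Cdh3 (chr8:106510891-106557297, plus strand) encodes P-cadherin, a close relative found in placenta and basal epithelia, and ends 46053 bp before Cdh1 begins. Its S129 allele had 6.98, 9.19, 9.87 and 7.86 RPKM in replicates 1 to 4 and its CAST allele 9.86, 10.8, 11.4 and 9.58 RPKM. CAST was higher within each library, but the S129 value of replicate 3 was above the CAST values of replicates 1 and 4, so the alleles overlapped. The log2 difference was -0.30 (SE 0.061, limma, Benjamini-Hochberg adjusted p = 0.0124), and it did not pass when the pairing by library was left out (limma adjusted p = 0.0645). Cdh1 was the more abundant of the 2 cadherins, at 48.6 ± 6.20 RPKM against 9.44 ± 1.05 RPKM (SD, n = 4 libraries each).

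Chromosome 8 as a whole had less RNA from S129, with a median log2 difference of -0.25 over 713 genes. The 44 other tested genes within 1000000 bp of Cdh1 had a median of -0.26, and 23 of them were called with CAST higher and 4 with S129 higher. After subtracting the median of chromosome 8, the log2 difference of Cdh1 was -0.17 (limma, Benjamini-Hochberg adjusted p = 0.0119), and that of Cdh3 was -0.07 (adjusted p = 0.375), which did not pass. The gap between the allele differences of Cdh1 and Cdh3 was within the spread between libraries: Cdh1 minus Cdh3 was -0.10 ± 0.13 (SD, n = 4) on the log2 scale, below 0 in 3 of 4 libraries (p = 0.25, adjusted p = 0.25 over 3 pairs, in an exact permutation test that flips the signs of the libraries, two-sided). With 4 libraries this exact permutation test cannot go below p = 0.13.

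Epcam (chr17:87635979-87651129, plus strand) encodes the epithelial cell adhesion molecule, a surface protein that marks epithelial and undifferentiated stem cells. Its S129 allele had 85.0, 84.7, 86.0 and 75.6 RPKM in replicates 1 to 4 and its CAST allele 136, 137, 138 and 124 RPKM. Within each allele 3 libraries lay close together and replicate 4 was lower, while the alleles were far apart. CAST was 1.62-fold higher (log2 difference -0.69, SE 0.029, limma, Benjamini-Hochberg adjusted p = 0.000104, 4 of 4 libraries). The S129 share of the 2683 to 7703 reads per allele was 39.1% ± 0.26 (SD, n = 4), the smallest SD of the share among the 10 genes. In replicate 4, the shallowest, it was 38.8% (exact Clopper-Pearson 95% interval 37.6% to 39.9%). No molecular identifiers are described for the libraries, so such intervals cover counting error only. The median difference over the 646 genes of chromosome 17 was -0.05.

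**Figure D2:**
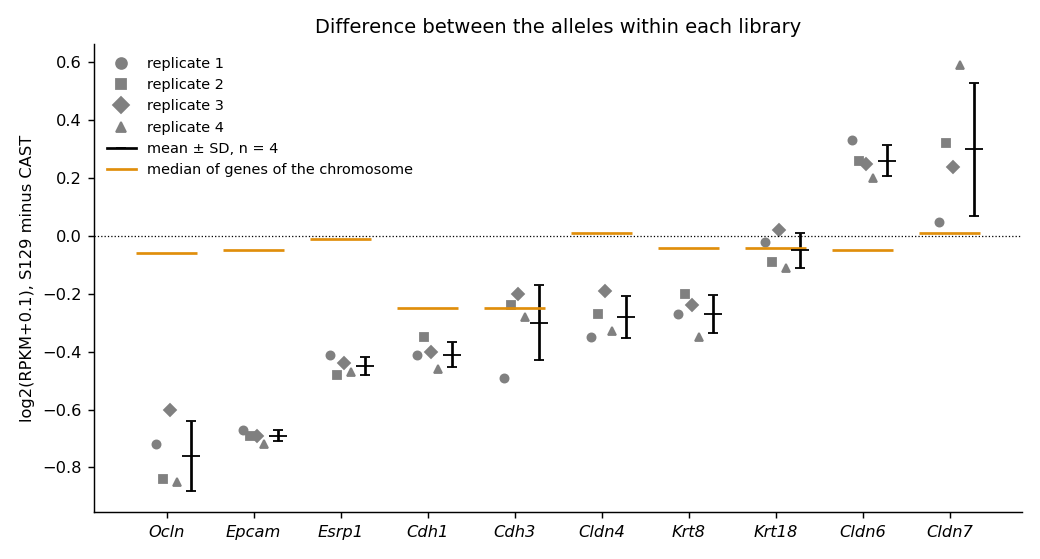
Log2(RPKM+0.1) of S129 minus CAST within each library for the 10 genes, with the marker shape giving the replicate, black bars the mean ± SD of 4 libraries and orange lines the median of the tested genes on the same chromosome. Epcam, Esrp1 and Ocln lie well below the orange line of their chromosome, Cdh1 and Cdh3 share a chromosome whose line is at -0.25, and Cldn6 lies above 0 in every library.

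Among the 4 tight junction genes, Cldn4 and Ocln were called CAST higher, Cldn6 was called S129 higher and Cldn7 did not pass. Cldn4 (chr5:134945119-134946934, minus strand) encodes claudin 4, a barrier-forming claudin. Its S129 allele had 96.8, 109, 107 and 101 RPKM in replicates 1 to 4 and its CAST allele 123.3, 131, 122 and 126 RPKM. The alleles did not overlap, and the log2 difference was -0.28 (SE 0.041, limma, Benjamini-Hochberg adjusted p = 0.00459). The median difference of the 34 other tested genes within 1000000 bp was -0.20, with 17 called for CAST and 8 for S129, while the median of chromosome 5 was 0.01.

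Cldn6 (chr17:23679249-23682446, plus strand) encodes claudin 6, a claudin of embryonic epithelia and pluripotent cells. It had 42.9, 44.9, 43.2 and 45.9 RPKM from S129 in replicates 1 to 4 and 34.1, 37.5, 36.3 and 39.9 RPKM from CAST. Every S129 value was above every CAST value. S129 was 1.2-fold higher (log2 difference 0.26, SE 0.036, limma, Benjamini-Hochberg adjusted p = 0.0038, 4 of 4 libraries). Cldn6 was also the only one of the 10 genes with its own highest level in replicate 4, at 42.9 RPKM as the mean of both alleles. In that library 9 of the 10 genes were below their own mean.

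Cldn6 and Epcam lie 63953532 bp apart on chromosome 17 and differed in opposite directions. Epcam minus Cldn6 in the log2 allele difference was -0.95 ± 0.036 (SD, n = 4), below 0 in 4 of 4 libraries (exact permutation of signs, two-sided, p = 0.13 and thus as low as it can be, adjusted p = 0.188 over 3 pairs).

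Cldn7 (chr11:69964779-69967885, plus strand) encodes claudin 7, which lines the lateral membrane of epithelial cells and binds EpCAM. Its S129 allele had 7.65, 8.53, 7.23 and 6.86 RPKM in replicates 1 to 4 and its CAST allele 7.39, 6.81, 6.12 and 4.52 RPKM. S129 was higher within every library, with the values of the alleles overlapping between libraries. The log2 difference of 0.30 (SE 0.097) did not pass (limma, Benjamini-Hochberg adjusted p = 0.0514). The depth was the lowest of the 10 genes, at 69 to 201 reads per allele, and the S129 share ran from 51.7% in replicate 1 (exact Clopper-Pearson 95% interval 46.6% to 56.7%) to 61.2% in replicate 4 (53.7% to 68.4%). Without replicate 1, the log2 difference was 0.38 (limma adjusted p = 0.0386), and over all alternatives the adjusted p ran from 0.0135 to 0.142.

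Ocln (chr13:100496507-100552718, minus strand) encodes occludin, a membrane protein of the tight junction. It was the lowest of the 10 genes, with 2.53, 2.39, 2.74 and 1.89 RPKM from S129 in replicates 1 to 4 and 4.24, 4.37, 4.22 and 3.48 RPKM from CAST. The alleles did not overlap, and replicate 4 was lowest on both. CAST was 1.69-fold higher (log2 difference -0.76, SE 0.056, limma, Benjamini-Hochberg adjusted p = 0.000535, 4 of 4 libraries), the largest difference among the 10 genes. With 133 to 479 reads per allele, the S129 share was 37.7% ± 2.0 (SD, n = 4), and the median difference of chromosome 13 was -0.06.

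Krt8 and Krt18 are neighbours on chromosome 15, 23697 bp apart and on opposite strands. Krt8 (chr15:101996698-102004482, minus strand) encodes keratin 8, the type II partner. Its S129 allele had 179, 205, 201 and 159 RPKM in replicates 1 to 4 and its CAST allele 215, 236, 237 and 203 RPKM. CAST was higher within every library, but the S129 value of replicate 2 was above the CAST value of replicate 4, so the alleles overlapped. The log2 difference was -0.27 (SE 0.039, limma, Benjamini-Hochberg adjusted p = 0.00462), and it did not pass when the pairing by library was left out (limma adjusted p = 0.0598). The annotation has a lincRNA on the opposite strand across the start of Krt8, and the strand setting of the counting is not given in the sources used here, so reads of the lincRNA could be counted in it.

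Krt18 (chr15:102028180-102032027, plus strand) encodes keratin 18, the type I partner. It had 119, 124, 121 and 113 RPKM from S129 in replicates 1 to 4 and 121, 132, 119 and 122.5 RPKM from CAST. The alleles lay together, with CAST higher in RPKM in 3 of 4 libraries, while S129 took 50.1% ± 1 (SD, n = 4) of the reads. The log2 difference of -0.05 (SE 0.038) did not pass (limma, Benjamini-Hochberg adjusted p = 0.295) and was 0.05 with the columns rescaled to one autosomal sum. Between the partners, Krt8 minus Krt18 in the log2 allele difference was -0.21 ± 0.067 (SD, n = 4), below 0 in 4 of 4 libraries, from -0.26 to -0.11 (exact permutation of signs, two-sided, p = 0.13, adjusted p = 0.188 over 3 pairs). The median difference of chromosome 15 was -0.04.

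Esrp1 (chr4:11331933-11386783, minus strand) encodes an RNA-binding protein that directs epithelial splicing, for example of the fibroblast growth factor receptor Fgfr2. It had 5.98, 6.06, 6.51 and 5.27 RPKM from S129 in replicates 1 to 4 and 7.97, 8.50, 8.89 and 7.32 RPKM from CAST. The alleles did not overlap. CAST was 1.37-fold higher (log2 difference -0.45, SE 0.031, limma, Benjamini-Hochberg adjusted p = 0.000438, 4 of 4 libraries), on 343 to 831 reads per allele and against a median of -0.01 for chromosome 4. A lincRNA on the opposite strand overlaps the end of Esrp1, with the same limit as for Krt8.

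The alleles did not overlap with CAST higher for 5 of the 10 genes (Cdh1, Epcam, Cldn4, Esrp1 and Ocln), against 22.2% of all genes tested, and with S129 higher for Cldn6, against 23.3% of all genes tested. Among autosomal genes alone, 32.5% were called with CAST higher and 28.9% with S129 higher, 61.4% in either direction. Medians of the other tested genes within 1000000 bp were -0.26 for Cdh1 and Cdh3, -0.20 for Cldn4 and -0.16 for Ocln. Those medians were -0.13 for Cldn6, -0.02 for Cldn7, 0.01 for Epcam, Krt8 and Krt18, and 0.10 for Esrp1.

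In the order of the levels, Krt8 was followed by Krt18 at 121 ± 4.36 RPKM, Cldn4 at 115 ± 4.21, Epcam at 108 ± 5.63, Cdh1 at 48.6 ± 6.20, Cldn6 at 40.6 ± 1.90, Cdh3 at 9.44 ± 1.05, Esrp1 at 7.06 ± 0.592, Cldn7 at 6.89 ± 0.912 and Ocln at 3.23 ± 0.369 (SD, n = 4 libraries each). Of the 9 pairs of neighbours in this order, 5 did not overlap between libraries. These steps were Krt8 above Krt18 (log2 difference 0.75), Epcam above Cdh1 (1.16), Cldn6 above Cdh3 (2.10), Cdh3 above Esrp1 (0.41) and Cldn7 above Ocln (1.07). Each was in the same direction in 4 of 4 libraries (exact permutation of signs, two-sided, p = 0.13, as low as it can be, adjusted p = 0.188 over 9 pairs). Krt18 and Cldn4 overlapped between libraries, although Krt18 was higher within 4 of 4, by 0.08 ± 0.03 (SD, n = 4; exact permutation p = 0.13, adjusted p = 0.188). Cldn4 with Epcam and Cdh1 with Cldn6 overlapped and held their order in 3 of 4 libraries, and Esrp1 with Cldn7 in 2 of 4 (exact permutation p = 0.625).

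The RPKM depends on the transcript length that was divided by. The deposited Cldn7 values use 913 bp, the length of its first-listed transcript, while all its annotated exons come to 1948 bp; with that length its level was 3.23 RPKM, and Cldn7 above Ocln shrank from 1.07 to 0.05 on the log2 scale. For Esrp1 the lengths were 3743 and 6305 bp, and its level with all exons was 4.19 RPKM. All exons together are longer than any single transcript of these genes, the longest being 1335 bp for Cldn7 and 3864 bp for Esrp1. Levels over all exons are therefore no higher than those with any annotated transcript. The ratio of the alleles does not depend on the length.

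**Figure D3:**
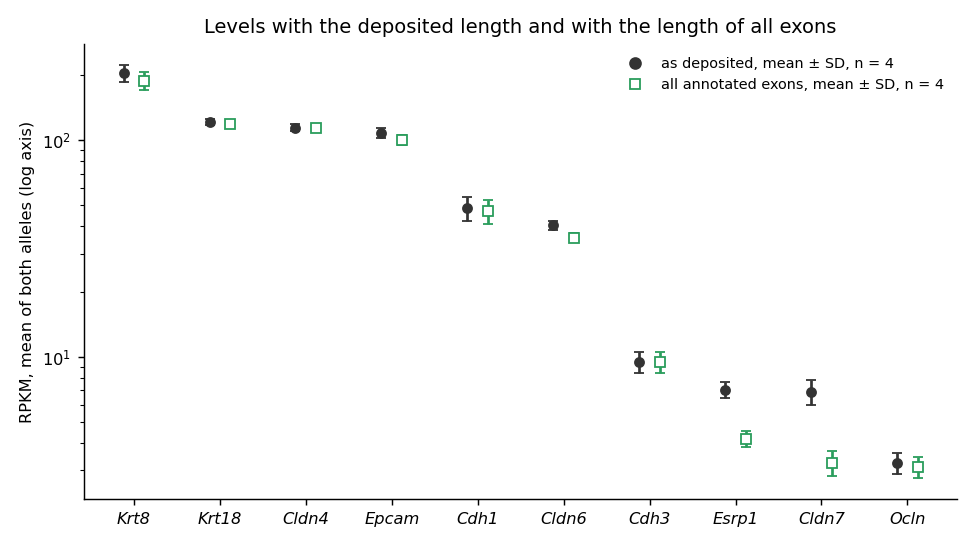
Level of each gene as the mean of both alleles (RPKM, log axis; mean ± SD of 4 libraries), as deposited (black circles) and recomputed over all annotated exons (green squares). All 10 genes keep their order, and Esrp1 moves from 7.06 to 4.19 RPKM and Cldn7 from 6.89 to 3.23 RPKM, next to Ocln.

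Across the 4 libraries, the median SD of the 10 genes' levels in log2(RPKM+0.1) was 0.13, against 0.14 for all genes tested. Without replicate 4 that of the 10 genes was 0.067. The value for all genes tested without replicate 4 is not given here, so the drop cannot be called particular to the 10. Krt18 (SD 0.051), Cldn4 (0.053) and Cldn6 (0.067) varied least, and Cldn7 (0.20), Cdh1 (0.18) and Ocln (0.17) most. In replicate 4, 9 of the 10 genes were below their own mean, by a median of -0.14, while all genes tested were at a median of -0.10 there. In replicate 2 none of the 10 was below its mean, at a median of 0.07 against 0.06 for all genes tested. Replicate 4 had the fewest reads, and the part of depth in its levels was not tested.

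**Figure D4:**
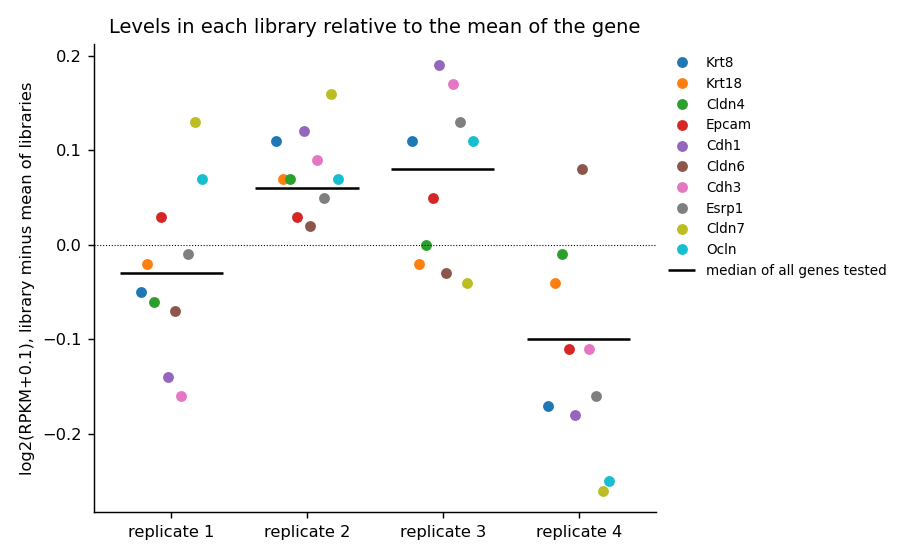
Log2(RPKM+0.1) of each gene in a library minus the mean of its 4 libraries, as the mean of both alleles, with a black line for the median of all genes tested. All 10 genes lie above 0 in replicate 2 and 9 of them below 0 in replicate 4; the black line is highest in replicate 3 at 0.08 and lowest in replicate 4 at -0.10.

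The promoters of these genes are shown because repressors of the Snail and Zeb families bind the E-box CAGGTG, whose reverse complement CACCTG marks the same site on the other strand. Among RefSeq promoters (GRCm38.p6), 7 of the 10 genes were matched, with 9 start sites in all. Promoters of Cdh1, Cdh3 and Esrp1 are not shown here. Within 250 bases before the start, all 7 genes had an E-box on either strand in at least 1 window, against 19.4% of 27025 genes. Of the 9 windows, 7 held one, against 17.2% of 32851 promoters. The windows of Krt8, Krt18 and Cldn6, and the E-box windows of Cldn7 and Ocln, reach into the annotated gene. Among windows wholly outside it, those of Epcam and Cldn4 held an E-box and those of Cldn7 and Ocln held none. The windows of Epcam and Cldn4, which lie before the first annotated exon, are printed 5′ to 3′ on the strand of the gene, with E-boxes in capitals. The Epcam window is chr17:87635729-87635978 on the plus strand, and the Cldn4 window is chr5:134946935-134947184 on the minus strand.
Epcam: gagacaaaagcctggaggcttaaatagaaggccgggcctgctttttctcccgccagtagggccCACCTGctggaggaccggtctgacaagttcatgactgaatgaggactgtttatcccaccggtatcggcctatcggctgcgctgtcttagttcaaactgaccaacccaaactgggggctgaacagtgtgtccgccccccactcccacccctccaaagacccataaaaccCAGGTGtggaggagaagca
Cldn4: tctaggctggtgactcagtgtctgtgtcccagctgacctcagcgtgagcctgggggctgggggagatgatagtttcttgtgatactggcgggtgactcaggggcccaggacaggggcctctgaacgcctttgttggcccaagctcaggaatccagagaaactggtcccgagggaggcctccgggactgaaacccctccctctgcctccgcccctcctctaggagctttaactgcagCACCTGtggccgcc
Epcam has 2 E-boxes, which begin 187 and 19 bases before its start, and 2.06% of all promoters hold 2 or more. The Cldn4 E-box begins 14 bases before the start, that of Cldn6 93 bases, that of Krt8 111 bases and that of Krt18 214 bases before. For Cldn7 and for Ocln the second of their 2 start sites has 2 E-boxes in its window and the first has none. The window was chosen with the data in view, and a match is only a description of the letters. The Grainyhead-like motif AACCNGTT was in none of the 9 windows and in 1.79% of all promoters.

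Some related genes were divided by a short first-listed transcript, so their levels are given as deposited and, where these differ by over 1.5 times, also over all annotated exons, an alternative added after the data were seen. The 7 lists of related genes, 78 genes in all with 64 tested, had 22 genes called with S129 higher, 15 with CAST higher and 27 not called. Their median difference was 0.01. The shares over all genes tested were 31.4% S129 higher and 31.3% CAST higher. Of the 10 cadherin partners, 6 were called S129 higher and 2 CAST higher (median 0.16). Ctnnb1, or beta-catenin, which links cadherins to alpha-catenin, had 1208 RPKM as deposited but 84.7 RPKM over all exons, and did not pass (log2 difference -0.03, limma adjusted p = 0.408). Ctnna1, or alpha-catenin, had 113 RPKM as deposited and 65.0 over all exons. Jup, or plakoglobin, had the largest difference toward S129 at 1.17 (limma adjusted p = 3.39e-05), and Cdh2, or N-cadherin, toward CAST at -0.59 (limma adjusted p = 0.000904). For Cdh1 and its partner Ctnnb1 the alleles had log2 differences of -0.41 and -0.03. The medians of their chromosomes were -0.25 for chromosome 8 and -0.00 for chromosome 9. With the chromosome median taken out, Cdh1 had -0.17.

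Of the other tight junction genes 15 of 19 were tested, and 6 were called CAST higher and 4 S129 higher (median -0.09). Cldn12 at 222 RPKM and the scaffold Patj at 113 RPKM were the highest as deposited, but had 18.3 and 2.18 RPKM over all exons, where Prkci was the highest at 39.3 RPKM. Cldn12 was called CAST higher at -0.49. The largest differences were in the cytoskeletal linker Cgn toward CAST at -1.35, on chromosome 3 with a median of -0.74, and in Cldn5 toward S129 at 1.24, on chromosome 16 with a median of 0.69. Desmosome genes had 4 called S129 higher and 1 CAST higher of 9 tested (median 0.24). Perp had 45.1 RPKM and the largest difference, 1.32 (limma adjusted p = 1.72e-05), Pkp2 had 36.2 RPKM as deposited and 13.2 over all exons, and Dsc2 was CAST higher at -0.45. Of the 7 other keratins tested, Krt5 was called S129 higher at 1.38 and Krt14 CAST higher at -0.31. Krt19 was the highest at 57.3 RPKM, at log2 0.13 between alleles (limma adjusted p = 0.0617), below Krt8 and Krt18 in RPKM with either length.

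Epithelial regulators had 3 called S129 higher, 4 CAST higher and 6 not called of 13 tested (median -0.05). Cd24a, a surface glycoprotein, had 154 RPKM as deposited (log2 difference -0.73) and Spint2, an inhibitor of matriptase, 72.7 RPKM. Over all exons they had 34.3 and 20.8 RPKM, and Tfap2c had 22.4. The transcription factor Grhl2, which acts on Cdh1 and claudin genes, was S129 higher at 0.59, and the repressor Ovol2 was CAST higher at -1.73 (limma adjusted p = 7.5e-05).

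Among the 7 EMT transcription factors, Snai1 and Twist1 were listed at 0 in every library and allele. Only reads over a SNP were counted, so a 0 cannot be told from a transcript without a usable SNP. The highest of the 7 were Snai3 at 2.92 RPKM (log2 difference -0.34, called CAST higher) and Zeb1 at 2.61 RPKM, or 1.48 over all exons. Of the 4 tested, 2 were called S129 higher and 1 CAST higher (median 0.25). Snai2 was called S129 higher at 1.15, on chromosome 16. Of 8 mesenchymal genes, 6 were tested, of which 2 were called S129 higher and 4 were not called (median 0.04). Vim, or vimentin, had 1703 RPKM as deposited (log2 difference 0.46), but 206 RPKM over all exons, where Krt8 had 189 RPKM. Sparc had 120.4 RPKM as deposited and 67.2 over all exons, and Tgfbi had an allele difference of 1.03.

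**Figure D5:**
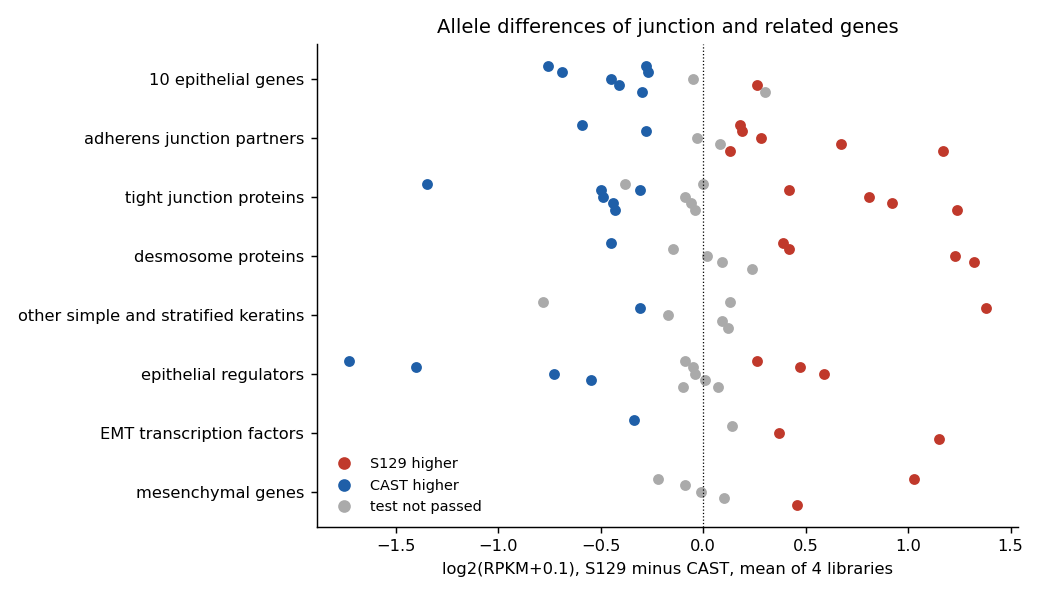
Mean log2(RPKM+0.1) of S129 minus CAST over 4 libraries for each tested gene of the 10 epithelial genes and of the 7 related lists, coloured by call (red S129 higher, blue CAST higher, grey not past the test). The 10 epithelial genes have 7 blue points and 1 red, and the 64 tested genes of the 7 lists have 15 blue and 22 red. Of all 13341 genes tested, which are not drawn, 31.3% were called CAST higher and 31.4% S129 higher.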

How the data were processed

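RNAseq of 4 libraries of untreated F123-ESCs was examined. The authors filtered ribosomal RNA, trimmed reads with Trimmomatic 0.40, checked them with FastQC, aligned them with STAR to mm10 masked at the strain SNPs, and split them by SNPsplit. The authors deposited RPKM per gene, allele and library, and log10 of the average RPKM plus 1, which was not used here. The counting program and annotation are not given in the sources used here. No column belonged to another sample (0 columns). Of 24026 genes, 23995 matched GENCODE M21 in mm10.

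Reads were recovered from the RPKM steps: with the length of the first-listed transcript, 87% of 20228 genes came out whole (tolerance 0.02). For Cldn6, Krt8 and Krt18 the length was searched, so their reads are the fewest possible. Both-allele totals were 56627973, 50284966, 48178423 and 34120417 in replicates 1 to 4.

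Alleles were compared by limma 3.58.1 (R 4.3.3) on the log2(RPKM+0.1) of S129 minus CAST per library, in an intercept-only model, over 13341 genes with S129 plus CAST of at least 1 RPKM, adjusted by Benjamini-Hochberg at 0.05. Differences of low genes are understated on this scale. Columns with the same number correlated at 0.105 to 0.195 in their deviations, and those with different numbers at -0.155 to 0.140. These ranges overlap, so the correlations do not settle the pairing. Columns were paired by the number in their headers, since the reads of each library were split by allele. The S129 column of replicate 1 has a minus sign before its number, which was read as 1. Neighbouring genes and levels were compared by two-sided exact sign-flip permutation tests (Python 3.11.15, scipy 1.17.1).

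The 10 genes, the lists and the tests were chosen with earlier results of these data known. The genes named are the 10, and of each list the 2 highest, the largest called difference in each direction and those listed at 0; of marker lists, the sum and the highest gene. Other marker genes and the highest genes over all exons were named after their values were seen. Alternatives were pseudocounts of 1 and 0.01, no filter or 5 RPKM, columns rescaled to one autosomal sum, the chromosome median taken out, a variance trend, no replicate block, exon-union lengths, each allele alone and each library left out. The recovery of reads and limma were tested on simulated data, and the permutation test on small fixed sets of values with known results.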

Additional observations from a re-analysis of the deposited data

Results flagged for a closer look

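In 2 of 20 quantities tested (the level and the allele difference of each of the 10 genes), 1 library stood apart from the other 3 by more than Dixon's 95% critical value for 4 values, which chance gives in about 1 of 20 groups. Epcam had 99.95 RPKM in replicate 4 as the mean of both alleles, a gap of 0.847 of the range, with the other libraries at 110.3 to 112 RPKM. Ocln had 2.69 RPKM in replicate 4, a gap of 0.875 of the range, with the others at 3.38 to 3.48 RPKM. Their allele differences did not stand apart in any library.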

How the results depend on the processing

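Of 426 values computed under the alternatives, 359 were labelled the same. Differences and levels with that label kept their direction and side of the threshold or moved by less than the spread between libraries. Counts of genes had a looser limit, so the 359 include changed counts, such as those with rescaled columns and without the replicate block. Among 120 allele differences of the 10 genes, 111 were as reported. The count of genes with S129 higher was 2 in place of 1 with a pseudocount of 1, with a minimum of 5 RPKM, with rescaled columns and with a variance trend, and 1 to 2 with single libraries left out; Cldn7 was the gene added. The fit without the replicate block called 3292 genes S129 higher and 3133 CAST higher, and Cdh3 (limma adjusted p = 0.0645) and Krt8 (0.0598) were lost, which left 5 genes CAST higher. It changed the call of no other gene of the 10. Rescaling the columns to one autosomal sum moved the median of all genes by 0.10 and called 5134 genes S129 higher and 3070 CAST higher, so that 62.6% of calls were S129 higher in place of 50.0%; the difference of Krt18 was then 0.05. The median SD of the 10 genes was 0.067 to 0.15 with single libraries left out. Levels depended on the allele. From S129 alone, Cdh1 above Cldn6 was -0.09 and Esrp1 above Cldn7 was -0.34, and from CAST alone, Krt18 above Cldn4 was -0.03 and Cldn4 above Epcam was -0.09 on the log2 scale. Esrp1 above Cldn7 was -0.01 to 0.09 with single libraries left out, lowest without replicate 3. The cause was not tested. With 4 libraries the exact permutation test cannot go below p = 0.13, and depth limits Cldn7 and Ocln most.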

Other observations

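The 8 primitive endoderm markers summed to between 71.1 and 83.5 RPKM per library as the mean of both alleles, with Dab2, an endocytic adaptor, the highest at 44.2 RPKM, and Sox17, Sox7 and Foxa2 under 1 RPKM. Over all annotated exons the sum was 28.2 to 33.7 RPKM, and the highest was Col4a1, a basement membrane collagen, at 23.9 RPKM (26.9 as deposited), with Dab2 at 3.87 RPKM. Cdh3, Esrp1, Cldn7 and Ocln were below Col4a1 with either length. The 7 trophectoderm markers, a lineage that also builds a Krt8 and Krt18 network, summed to between 5.71 and 7.23 RPKM, or 3.97 to 4.97 RPKM over all exons, led by Eomes at 2.92 RPKM as deposited. Cdx2, Elf5, Gata3, Tfap2a and Krt7 were under 1 RPKM; Krt7 is also in the list of other keratins. The part of such cells in the levels of the 10 genes was not tested.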
